A study of Homo sapiens with 9 samples.

Results

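A549 cells, an established human lung adenocarcinoma line, were compared directly between 2 overexpression plasmids, one for the long noncoding RNA (lncRNA) LINC00996 and one for the lncRNA AP001189.3. The comparison was made of the 3 libraries labelled with the LINC00996 plasmid and the 3 libraries labelled with the AP001189.3 plasmid, 6 of the 9 RNA-seq libraries of the series, and it was read across all genes. Cells of both groups had been transfected with jetPRIME, a DNA transfection reagent, so each group carried plasmid DNA and an excess of 1 lncRNA, and neither group was an untreated reference. The remaining 3 libraries carried the control plasmid. Control levels are printed beside named genes with no test, because no control library entered the comparison. The labels do not state separate cultures, so the p-values measure the spread between these libraries, which may be technical.

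The study took LINC00996 from its prognostic model of lung adenocarcinoma and AP001189.3 from its model of squamous cell carcinoma, both models being built on immune-related lncRNAs. Epithelial cells answer foreign nucleic acid through sensors such as RIG-I and MDA5, which switch on interferon genes through IRF factors and inflammatory genes through NF-kB. Secreted interferons then act through JAK kinases and a complex of STAT proteins with IRF9 on interferon-stimulated genes, whose products block viral replication, load peptides on MHC class I and attract lymphocytes. NF-kB holds dimers of subunits such as RELA and NFKB1 in the cytoplasm under IkB proteins until an upstream kinase complex releases them. Lung epithelium uses both pathways to call neutrophils, T cells and monocytes through chemokines.

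The deposited counts summed to 15272450 to 18125447 per library in the LINC00996 group and to 15600778 to 17383842 in the AP001189.3 group. The share of mitochondrially encoded genes was 6.68% to 7.18% with LINC00996 and 5.32% to 5.52% with AP001189.3. LINC00996 replicate 1 stood apart from its group, with a chi-square per gene of 22.2 and 33.4 against replicates 2 and 3, where every other pair of replicates was at 2.26 to 4.83. Its genes deviated upward with GC content, with a Spearman's rho across genes of 0.45, where replicates 2 and 3 were at -0.39 and -0.56 and the AP001189.3 libraries at 0.09 to 0.25. Values are therefore also given without this library where it moved a result. The first principal component held 58.1% of the variance and separated the plasmids, and the second held 20.8% and set LINC00996 replicate 1 apart. Among genes with 10 CPM or more, median log2 fold changes were -0.08 for those over 55% GC and 0.08 for those up to 40% GC, and -0.21 and 0.20 without LINC00996 replicate 1. The part of GC content in the results was not tested beyond the offsets given with the counts.

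**Figure D1:**
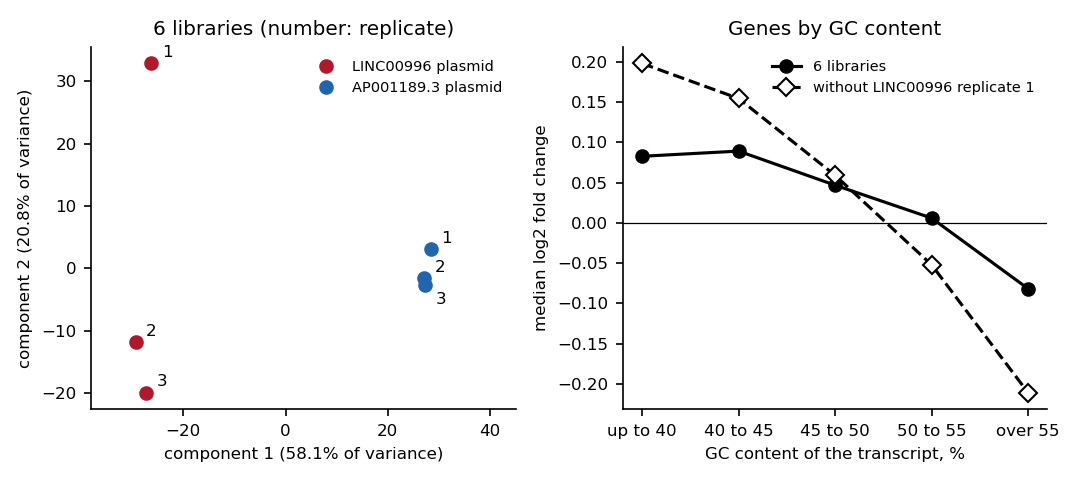
Left, principal components of the 6 libraries, 1 numbered point per library coloured by plasmid. The plasmids separate along the first component (58.1%), and LINC00996 replicate 1 lies away from replicates 2 and 3 along the second (20.8%). Right, median log2 fold change of genes by GC content of the transcript in %, which falls from 0.08 in the bin up to 40% to -0.08 in the bin over 55% with all libraries (filled points), and from 0.20 to -0.21 without LINC00996 replicate 1 (open points).

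The overexpressed lncRNAs were read first, since they check the labels. LINC00996 lies at chr7:150433654-150448140 on the plus strand of GRCh38, with annotated transcripts of 2043 bases in 4 exons and of 572 bases in 3 exons. Its counts were 5239, 4373 and 5952 with the LINC00996 plasmid and 8, 7 and 8 with the AP001189.3 plasmid, with 9, 8 and 4 counts in the control libraries. In CPM, which are counts relative to the library's counts in tested genes, multiplied by its TMM factor, LINC00996 was at 296 ± 24.3 (SD, n = 3) against 0.473 ± 0.0155, a log2 fold change of 9.27 ± 0.16 SE, adjusted p = 1.75e-11 by the quasi-likelihood test of edgeR. All log2 fold changes, standard errors (SE) and adjusted p given here come from that fit, with p adjusted by Benjamini-Hochberg over all genes tested. AP001189.3 lies at chr11:76654169-76656712 on the minus strand, with a transcript of 651 bases in 2 exons. It had 1660, 1931 and 2378 counts in the AP001189.3 libraries and 0 counts in each LINC00996 library, with 0, 2 and 1 counts in the control libraries. Against a floor of 3 counts per library, its mean of 123 ± 23.4 CPM in the AP001189.3 libraries exceeded the LINC00996 libraries by at least 714-fold. Each group thus held its own lncRNA in every library, while the other stood at 0 counts (AP001189.3) or at counts like those of the control libraries (LINC00996). Per length, in the deposited FPKM, LINC00996 reached 130, 127 and 147 in its libraries and AP001189.3 reached 149, 191 and 219.7 in its own.

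The amplicons of the study's qPCR primers are shown because they mark which stretch of each lncRNA the study measured outside the sequencing. Capitals mark the forward primer at the 5′ end and the complement of the reverse primer at the 3′ end, and the bases between come from the annotated GENCODE transcripts. The LINC00996 amplicon spans bases 143 to 250 of the longer transcript (108 bases), and on the shorter transcript the same primers span 236 bases. The AP001189.3 amplicon spans bases 415 to 524 of its transcript (110 bases).
LINC00996: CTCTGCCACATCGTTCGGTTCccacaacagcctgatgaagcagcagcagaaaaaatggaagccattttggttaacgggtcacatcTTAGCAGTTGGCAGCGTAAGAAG
AP001189.3: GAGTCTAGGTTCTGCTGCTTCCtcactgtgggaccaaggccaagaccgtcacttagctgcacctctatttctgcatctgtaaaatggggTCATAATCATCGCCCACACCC

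**Figure D2:**
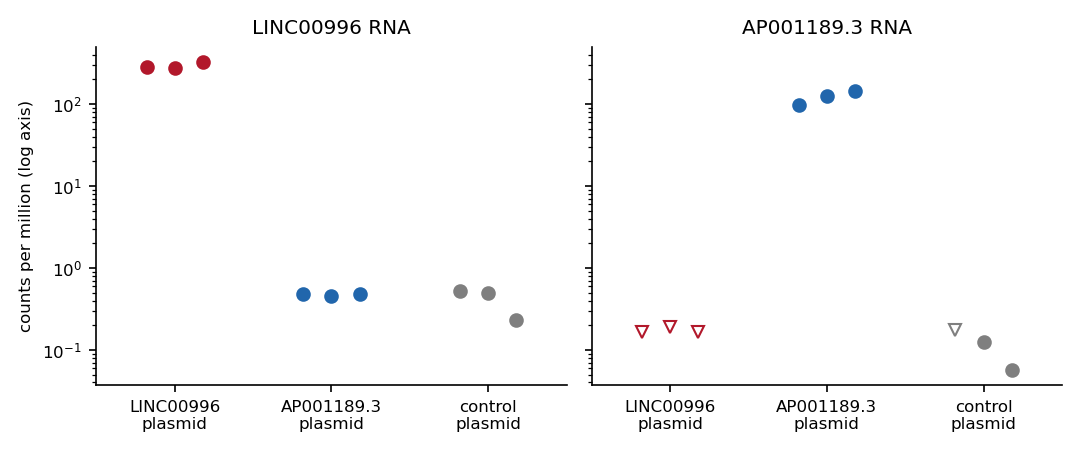
Level of LINC00996 and AP001189.3 in every library, in CPM on a log axis, by plasmid. Each lncRNA is high in its own 3 libraries (LINC00996 at 279 to 324 CPM, AP001189.3 at 98.4 to 145 CPM) and at or under 0.529 CPM in all other libraries. Open triangles mark libraries with 0 counts, drawn at the floor of 3 counts.

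Across all genes, the libraries with LINC00996 had lower levels of a large set of immune, inflammatory and immediate-early genes and higher levels of a set of cell cycle, respiratory chain and ribosomal genes than those with AP001189.3. Of 58735 genes in the table, 16095 passed the filter on low counts and were tested, and 3452 (21.4%) were called at an adjusted p under 0.05. Of these, 1510 were higher in the LINC00996 libraries (9.38% of genes tested) and 1942 were lower (12.1%). The lower genes had the larger differences. Calls of 1 or more on the log2 scale numbered 96 among the higher and 570 among the lower genes, and calls of 2 or more numbered 7 and 111. The median log2 fold change was 0.51 among higher calls, -0.70 among lower calls and 0.02 among all genes tested. The ranges of the plasmid groups were apart for 3057 genes that were higher (19.0%) and 3237 that were lower (20.1%). The count of calls depended on single libraries. It was 6828 without LINC00996 replicate 1 (3326 higher, 20.3% of genes tested, and 3502 lower, 21.3%), 2125 without LINC00996 replicate 2 (4.80% higher, 8.01% lower), and 1840, 1957 and 1933 without AP001189.3 replicate 1, 2 and 3 (3.62%, 4.15% and 3.93% higher, 7.55%, 7.66% and 7.73% lower). Without LINC00996 replicate 3, 8.68% of genes were higher and 11.4% lower. List counts given for fewer libraries are to be read against these shares. With library size alone as the scaling, 56.1% of calls were higher in place of 43.7%, and with offsets for GC content or gene length 54.1% and 52.6% were.

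**Figure D3:**
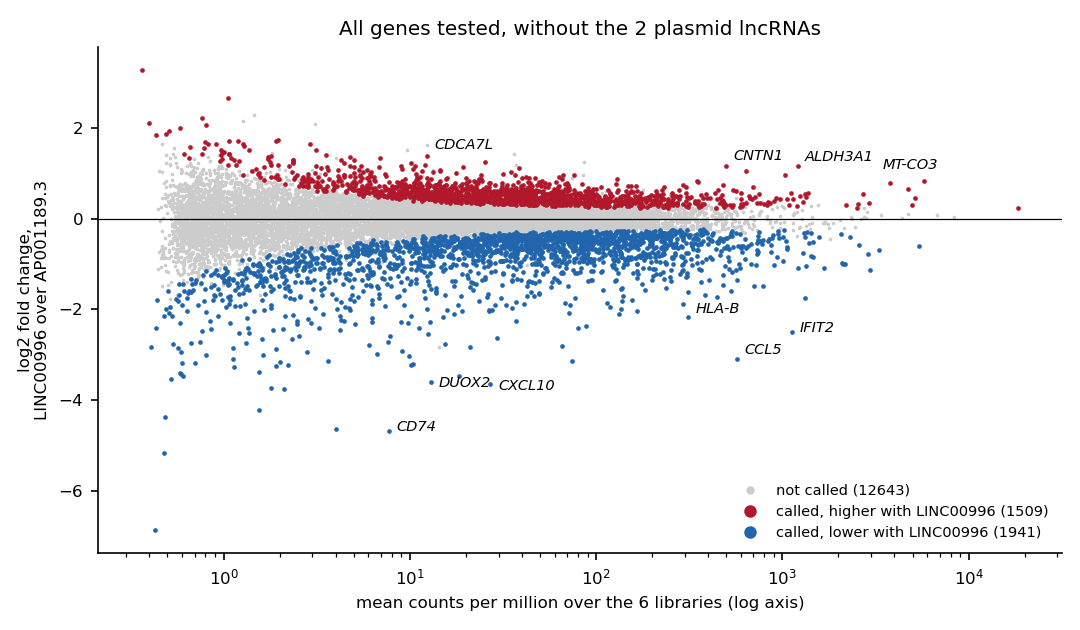
Log2 fold change (LINC00996 over AP001189.3) against mean CPM over the 6 libraries (log axis) for the genes tested, with genes called at an adjusted p under 0.05 in colour. Calls with a large difference lie mostly on the lower side, where 570 of the 666 calls of 1 or more on the log2 scale are found. The overexpressed lncRNAs are left out of the plot.

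Among lower calls of 1 or more on the log2 scale, only genes whose groups did not overlap were ranked. Of these, the 12 with the smallest adjusted p included chemokines, interferon-stimulated genes, tryptophan-degrading enzymes and adhesion genes. CCL5 (chr17:35871491-35880793), a chemokine that attracts T cells and monocytes, was at 126, 108 and 128 CPM in the LINC00996 libraries and at 965, 1038 and 1065 CPM in the AP001189.3 libraries, a log2 fold change of -3.08 ± 0.10 SE, adjusted p = 1.25e-08. CX3CL1 (chr16:57372458-57385048), a membrane-bound chemokine, was at 17.2, 12.9 and 15.5 CPM against 125, 132 and 143 CPM, a log2 fold change of -3.13 ± 0.12 SE, adjusted p = 8.57e-08. The separation of the plasmid groups was thus fixed by the choice. For both genes all LINC00996 libraries were also under all control libraries. The control libraries were at 1329, 1173 and 1100.1 CPM for CCL5 and at 76.7, 65.2 and 70.7 CPM for CX3CL1. DUOX2, an oxidase of airway epithelium that makes hydrogen peroxide, had the lowest log2 fold change of these 12 genes, -3.60 ± 0.19 SE, adjusted p = 4.69e-07, from 27.6, 21.7 and 22.5 CPM in the AP001189.3 libraries to 1.47, 2.36 and 2.12 CPM in the LINC00996 libraries. KLHDC7B was at 2.23, 1.79 and 2.07 CPM against 16.8, 19.6 and 19.6 CPM, a log2 fold change of -3.19. PLEKHA4, a pleckstrin homology protein, was at 29.4, 25.4 and 27.6 CPM against 109.8, 125 and 115 CPM and APOL1, an interferon-induced apolipoprotein, at 189.6, 169 and 189.8 CPM against 593, 591 and 568 CPM, log2 fold changes of -2.09 and -1.68. Libraries of 1 group lay close together for these genes, with every SD smaller than the gap between the groups.

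ICAM1 (chr19:10270835-10286615), the adhesion molecule that leukocytes bind, was at 57.4, 44.8 and 49.5 CPM against 225, 215 and 207 CPM, with 168, 142 and 126 CPM in the control libraries and a log2 fold change of -2.09 ± 0.11 SE, adjusted p = 4.41e-07. HLA-B, IL4I1, IDO1 and OASL are given with their groups. DUOX2 overlaps its maturation factor DUOXA2, IL4I1 overlaps NUP62 and ATF5, and the annotated spans of HLA-B and HLA-C overlap. The counting was not stated to use strand, so reads of such neighbours cannot be told apart with certainty. In bulk RNA, fewer cells of a kind and less RNA per cell cannot be told apart either.

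**Figure D4:**
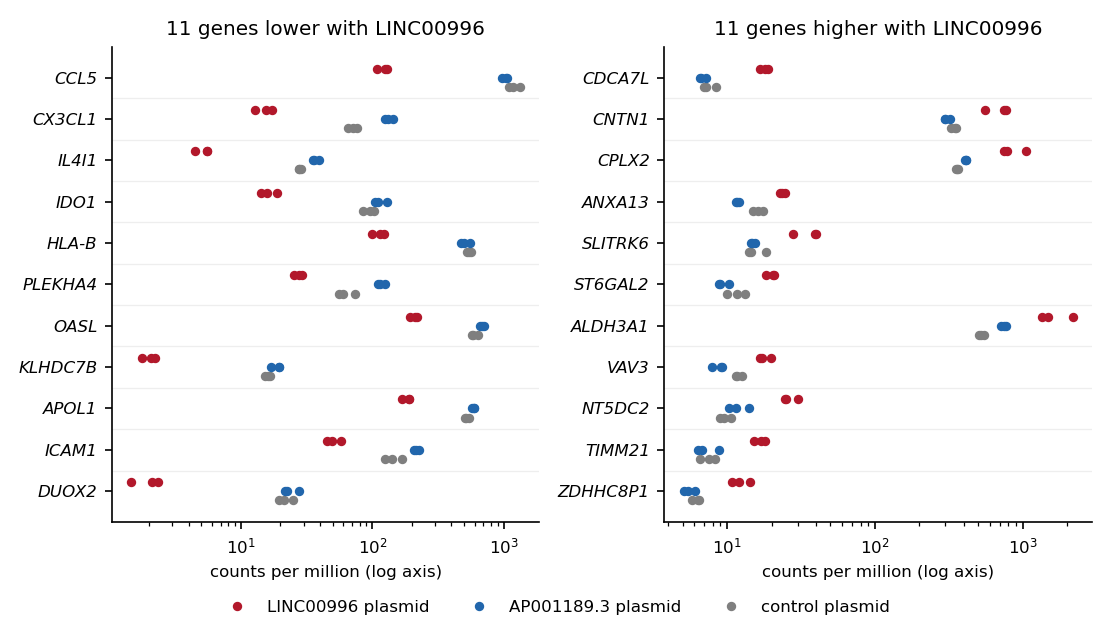
Level of 11 of the 12 lower and 11 of the 12 higher genes, in CPM on a log axis. Points are every library of the 2 plasmid groups and the control libraries. The genes have the smallest adjusted p among calls of 1 or more on the log2 scale without overlap between the plasmid groups. By this choice the LINC00996 points lie under all AP001189.3 points for the lower genes (CCL5 at 108 to 128 against 965 to 1065 CPM). They lie above them for the higher genes (CDCA7L at 16.7 to 18.9 against 6.52 to 7.24 CPM).

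Interferon-stimulated genes were lower in the LINC00996 libraries almost throughout. Of 67 genes listed and tested, 60 were called lower, none was called higher and 7 did not pass the test, against 12.1% of all genes called lower. Their median log2 fold change was -0.93, where that of all genes was 0.02. Without LINC00996 replicate 1, 61 were lower and 1 was higher, against 21.3% and 20.3% of all genes, and the median was -0.95. IFIT2, which binds viral RNA and blocks its translation, was at 285, 328 and 406 CPM in the LINC00996 libraries and 1684, 2004 and 2061 CPM in the AP001189.3 libraries, a log2 fold change of -2.50 ± 0.13 SE, adjusted p = 4.69e-07. IFIT2 overlaps LIPA in the annotation. OASL, a member of the oligoadenylate synthetase family, was at 219, 193 and 212 CPM against 665, 688 and 705 CPM (-1.72 on the log2 scale). IRF1, a transcription factor of interferon and antigen presentation genes, was at 98.9, 90.3 and 89.7 CPM against 277, 265 and 284 CPM (-1.57 on the log2 scale). For all 3 genes the control libraries fell between the plasmid groups, at 1069, 1041 and 1116 CPM for IFIT2, 586, 574 and 641 CPM for OASL and 186, 177 and 195 CPM for IRF1.

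By role, 6 of 7 IFIT and IFITM genes, 13 of 15 OAS, MX and other antiviral effectors, 10 of 11 genes of ISG15 conjugation, 23 of 24 GBP and helicase genes and 8 of 10 sensors and factors were called lower. The guanylate-binding protein GBP4 and the antiviral enzyme RSAD2 (viperin) had log2 fold changes of -2.37 and -2.42. The ubiquitin-like modifier ISG15 was at 762, 506 and 510.3 CPM against 1197, 1181 and 1248 CPM (-1.03) and MX1, an antiviral GTPase, at 550.2, 533 and 574 CPM against 764, 822 and 851 CPM (-0.56). Both RNA sensors were lower, DDX58 (RIG-I) with a log2 fold change of -1.34 and IFIH1 (MDA5) with -1.22. The signal transducer STAT2 was lower, at 255, 250.03 and 255 CPM against 437, 448 and 456 CPM (-0.82, adjusted p = 2.41e-05). IRF9 (-0.09, adjusted p = 0.747) and the RNA-activated kinase EIF2AK2 (0.08, adjusted p = 0.634) did not pass the test, and their groups overlapped. DDX60, IFIT5 and HERC6 were among the other members that did not pass.

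Of 45 cytokine and chemokine genes tested, 36 were called lower and 1 higher, against 12.1% and 9.38% of all genes. Their median log2 fold change was -1.17. It was -1.32 without LINC00996 replicate 1, with 37 lower and 2 higher, against 21.3% and 20.3% of all genes. All 5 interferon-type chemokines were lower, with a median of -3.13. CXCL10 and CXCL11, ligands of the T cell receptor CXCR3, were low transcripts with wide differences. CXCL10 was at 3.05, 3.51 and 5.49 CPM against 35.7, 55.8 and 59.0 CPM (-3.63 ± 0.24 SE, adjusted p = 2.22e-06) and CXCL11 at 1.74, 3.76 and 3.70 CPM against 24.8, 37.8 and 39.1 CPM (-3.47 ± 0.26 SE, adjusted p = 4.85e-06). For CXCL10, AP001189.3 replicate 1 lay within the range of the control libraries, which were at 36.5, 36.7 and 34.8 CPM, the other AP001189.3 libraries lay above it, and all LINC00996 libraries lay under it.

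Of 10 neutrophil-attracting chemokines together with CCL20, 8 were lower, with a median of -0.84. CXCL8, the main neutrophil chemokine, was at 369, 506 and 550.0 CPM against 1008, 937 and 951 CPM (-1.02), CXCL5 at 1918, 2011 and 2285 CPM against 3048, 3108 and 3094 CPM (-0.57) and CCL20 at 22.2, 22.6 and 26.3 CPM against 80.5, 71.5 and 72.4 CPM (-1.66). Every LINC00996 library was under every AP001189.3 library for these 3 genes. Among 30 interleukins and growth factors, 23 were lower and 1 was higher. CSF1, the growth factor of macrophages, was at 114, 110.1 and 111 CPM against 299, 277 and 281 CPM (-1.35 ± 0.08 SE, adjusted p = 1.26e-06). IL6 was at 4.57, 2.17 and 3.86 CPM against 20.6, 17.3 and 18.8 CPM (-2.40) and TNFSF10, the death ligand TRAIL, at 39.2, 49.3 and 58.3 CPM against 178, 197 and 191 CPM (-1.95). TNFSF15 (TL1A), a TNF family ligand, was the member called higher, at 60.1, 65.7 and 71.4 CPM against 45.8, 38.7 and 35.7 CPM (0.71 ± 0.12 SE, adjusted p = 0.00135), with 50.4, 56.4 and 57.5 CPM in the control libraries.

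Of the 5 interferon genes in this list, 4 were called lower and IFNE was not called (0.19, adjusted p = 0.567). IFNB1, interferon beta, was at 0.381, 0.128 and 0.544 CPM against 2.31, 2.74 and 3.72 CPM (-3.00 ± 0.41 SE, adjusted p = 3.49e-04), and the control libraries were at 1.06, 0.435 and 1.49 CPM. LINC00996 replicate 2 was under the level of 3 counts (0.191 CPM), so this fold is imprecise. The lambda interferon IFNL1 was at 2.94, 1.40 and 1.47 CPM against 14.9, 20.9 and 19.4 CPM (-3.23 ± 0.25 SE, adjusted p = 6.23e-06), with 8.47, 7.15 and 9.29 CPM in the control libraries. For IFNL1 the AP001189.3 libraries were above and the LINC00996 libraries below all control libraries. IFNL2 and IFNL3 (-3.02 and -2.91) are near-identical copies whose reads can be shared, so their separate values are uncertain.

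NF-kB pathway genes were lower in 28 of 38 cases and higher in none, against 12.1% and 9.38% of all genes. Their median log2 fold change was -0.86. Without LINC00996 replicate 1 the counts were 34 lower and 1 higher, against 21.3% and 20.3% of all genes, with a median of -0.81. The subunits RELA (-1.09), NFKB1 (-0.71) and NFKB2 (-1.14) were lower, and 4 of 5 subunits were so. RELA was at 123, 109 and 109 CPM against 265, 233 and 230.0 CPM, with no overlap. Inhibitors and feedback genes, which NF-kB itself induces, were lower in 10 of 13 cases. TNFAIP3 (A20), a ubiquitin-editing inhibitor of the pathway, was at 147, 149 and 163 CPM against 485, 447 and 476 CPM (-1.62 ± 0.08 SE, adjusted p = 4.69e-07), and its partner TNIP1 at 333, 317 and 310.4 CPM against 671, 665 and 649 CPM (-1.05). NFKBIA, the IkB alpha inhibitor, had a log2 fold change of -0.94, and BIRC3, an inhibitor of apoptosis, one of -1.47. All 4 adhesion targets, ICAM1 and VCAM1 (-1.52) among them, were lower, and 10 of 16 adaptors and kinases were.

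Promoter sequence was read beside these lists. RefSeq windows of 250 bases before the start (GRCh38.p14) were matched by symbol to 11038 of the 16095 genes tested. On either strand, GAAANNGAA (letters shared by interferon-response elements) was found in 610 promoters (5.53%) and GGANNTTCC (a core of the kB element) in 434 (3.93%). Over all 27305 promoters in the table the shares were 7.06% and 3.88%. The interferon-response letters were in 122 of 1377 promoters of genes called lower (8.86%) and in 58 of 1151 of genes called higher (5.04%). Among genes called lower with a log2 fold change of -1 or less they were in 48 of 334 (14.4%), and the kB letters in 31 of 334 (9.28%). By list, the interferon-response letters were in 26 of 50 promoters of interferon-stimulated genes (52.0%), in 7 of 33 of cytokines and chemokines (21.2%) and in 5 of 33 of the NF-kB pathway (15.2%). The kB letters were in 4 of the 50 promoters of interferon-stimulated genes, 13 of 33 of cytokines and chemokines (39.4%) and 7 of 33 of the NF-kB pathway (21.2%). Of 38 replication and mitosis promoters, 1 held the first motif (2.63%) and 3 the second (7.89%). Of the 12 lower genes with the smallest adjusted p, 5 had a promoter in the table, and none of these held the interferon-response letters and 1, ICAM1, held the kB letters. These shares are a description of letters in a fixed window and were not tested.

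Promoters of ICAM1, TAP1 and CD274 are shown because these genes are among the lower genes named here and their windows carry one or both motifs. They were chosen after the matches were seen. In all 3 genes the RefSeq start lies inside the gene as the deposited table places it, so the windows of ICAM1 and TAP1 lie wholly, and that of CD274 in part, within it. Capitals mark the matched letters, which run from 186 to 178 bases before the start in ICAM1 (kB core, chr19:10270870-10271119, plus strand). In TAP1 (chr6:32853705-32853954, minus strand) overlapping interferon-response matches run from 133 to 125 and from 127 to 119 bases before the start and a kB core from 71 to 63. In CD274 (chr9:5450292-5450541, plus strand) overlapping interferon-response matches run from 207 to 199 and from 201 to 193 bases before the start and a kB core from 111 to 103.
ICAM1: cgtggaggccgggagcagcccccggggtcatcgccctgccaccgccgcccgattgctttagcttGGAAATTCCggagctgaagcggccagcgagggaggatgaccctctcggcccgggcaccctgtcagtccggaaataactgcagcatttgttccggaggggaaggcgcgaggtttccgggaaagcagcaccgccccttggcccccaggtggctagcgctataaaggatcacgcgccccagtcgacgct
TAP1: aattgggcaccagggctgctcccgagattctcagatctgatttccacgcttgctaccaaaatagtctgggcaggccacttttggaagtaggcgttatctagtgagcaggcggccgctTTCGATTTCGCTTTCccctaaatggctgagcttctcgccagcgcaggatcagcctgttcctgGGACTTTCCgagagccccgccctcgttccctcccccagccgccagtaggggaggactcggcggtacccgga
CD274: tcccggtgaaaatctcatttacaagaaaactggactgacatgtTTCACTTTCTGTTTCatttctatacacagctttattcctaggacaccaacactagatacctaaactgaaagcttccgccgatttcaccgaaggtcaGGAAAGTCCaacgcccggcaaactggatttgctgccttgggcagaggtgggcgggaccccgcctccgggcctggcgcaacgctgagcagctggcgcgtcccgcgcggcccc

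MHC class I genes, which present peptides to CD8 T cells, were lower in 18 of 22 cases and higher in none (median -0.95). Of all genes, 12.1% were lower and 9.38% higher. Without LINC00996 replicate 1, 19 members were lower and 1 higher (median -1.01), against 21.3% and 20.3% of all genes. Heavy chains and beta-2-microglobulin had the larger differences. HLA-B was at 114, 99.8 and 123 CPM against 551, 499 and 474 CPM (-2.17 ± 0.10 SE, adjusted p = 3.63e-07), HLA-C at 297, 247 and 254 CPM against 875, 755 and 768 CPM (-1.59), and B2M at 959, 1073 and 1208 CPM against 2282, 2279.9 and 2268 CPM (-1.08). For HLA-B the control libraries, at 543, 521 and 558 CPM, overlapped the AP001189.3 libraries and not the LINC00996 libraries. HLA genes share reads with near-identical copies, so single heavy chains are uncertain. The peptide transporter TAP1, with the promoter shown, was at 250.02, 208 and 226 CPM against 574, 591 and 577 CPM (-1.35 ± 0.09 SE, adjusted p = 2.22e-06), and it overlaps PSMB9 in the annotation. The transactivator NLRC5, which drives class I transcription, had a log2 fold change of -1.22. All 5 immunoproteasome genes were lower, with a smaller median of -0.41.

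For MHC class II, which professional antigen-presenting cells use, 8 genes passed the filter. Of these, 6 were lower and 1 was higher, against 12.1% and 9.38% of all genes. Of the 9 others listed, none reached the filter, HLA-DRA among them. Without AP001189.3 replicate 2 or 3 the lower members numbered 4, against 7.66% and 7.73% of all genes. CD74, the invariant chain, was at 0.218, 0.446 and 1.03 CPM against 10.6, 18.5 and 15.4 CPM and 16.2, 14.8 and 13.2 CPM in the control libraries, a log2 fold change of -4.68 ± 0.36 SE, adjusted p = 6.07e-06. Its LINC00996 libraries were close to the limit of detection, where 3 counts are worth 0.163 to 0.191 CPM. The protease genes CTSS (123, 151 and 165 against 361, 354 and 352 CPM, -1.28) and LGMN (121, 128 and 125 against 221, 229 and 223 CPM, -0.85) and the transactivator CIITA (-1.15) were lower. HLA-DMB, a peptide exchange chaperone, went the other way, at 10.2, 7.78 and 7.12 CPM against 4.39, 3.65 and 4.15 CPM (1.04 ± 0.18 SE, adjusted p = 0.00212).

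Checkpoint and tryptophan genes were lower in 13 of 20 cases and higher in none (median -0.62), against 12.1% and 9.38% of all genes. Without LINC00996 replicate 1, 14 were lower, against 21.3% of all genes. CD274 (chr9:5450503-5470566), which encodes the checkpoint ligand PD-L1 and is a gene the study followed, was at 10.4, 12.2 and 15.8 CPM in the LINC00996 libraries and 54.8, 62.2 and 67.2 CPM in the AP001189.3 libraries, a log2 fold change of -2.26 ± 0.15 SE, adjusted p = 2.50e-06. All LINC00996 libraries were under, and all AP001189.3 libraries above, the control libraries at 37.5, 39.6 and 45.3 CPM. IDO1, which starts tryptophan breakdown to kynurenine, was at 15.8, 14.3 and 18.9 CPM against 104, 129 and 111 CPM (-2.81 ± 0.13 SE, adjusted p = 3.43e-07), and IL4I1, an amino acid oxidase that also acts on tryptophan, at 5.49, 5.55 and 4.51 CPM against 35.8, 35.3 and 39.1 CPM (-2.83 ± 0.13 SE, adjusted p = 3.43e-07). The downstream enzyme KYNU (-0.19, adjusted p = 0.225) and the receptor AHR (-0.22, adjusted p = 0.336) did not pass the test. Of the other genes the study names, STAT3 was at 339.6, 327 and 360.0 CPM against 452, 478 and 448 CPM (-0.42 ± 0.08 SE, adjusted p = 0.00326). The kinase genes LCK and SYK did not pass the filter on low counts. The study named PD-L1, LCK and SYK from protein levels that correlated with LINC00996 in adenocarcinoma patients. That measure differs from the RNA of A549 cells read here.

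Mucins and epithelial defense genes were lower in 19 of 28 cases and higher in none (median -0.96), against 12.1% and 9.38% of all genes. Without LINC00996 replicate 1, 21 were lower, against 21.3% of all genes. DUOXA2, needed to mature DUOX2, was at 0.218, 0.0638 and 0.598 CPM against 9.19, 6.003 and 7.93 CPM (-4.64 ± 0.40 SE, adjusted p = 1.26e-05) and shares an overlap with DUOX2. LINC00996 replicate 2 was under the level of 3 counts here too (0.191 CPM), so the fold is imprecise. The cell-surface mucin MUC16 was at 31.5, 29.3 and 31.0 CPM against 144, 93.3 and 103 CPM (-1.89 ± 0.15 SE, adjusted p = 7.17e-06), with 208, 200.1 and 182 CPM in the control libraries, so that both plasmid groups lay under the control group. PLAUR, the urokinase receptor, was at 139.7, 123 and 131 CPM against 315, 331 and 345 CPM (-1.33), and SAA2, an acute-phase protein, at 8.27, 7.27 and 6.69 CPM against 24.2, 23.5 and 23.4 CPM (-1.68). Complement C3 was at 1544, 1379 and 1447 CPM against 3204, 2789 and 2726 CPM (-0.996). The secreted mucin MUC5AC was lower (-0.49, adjusted p = 0.0103), a call lost without AP001189.3 replicate 1, while MUC5B was at 1245, 961 and 911 CPM against 1608, 1249 and 1205 CPM with overlapping groups (adjusted p = 0.0636).

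Immediate-early factors, which transcribe within minutes of a growth or stress signal, were listed with inhibitors that feed back on MAP kinases. Members of this list were lower in 21 of 27 cases and higher in none (median -0.76), against 12.1% and 9.38% of all genes. Without LINC00996 replicate 1, 25 were lower, against 21.3% of all genes. DUSP5, a phosphatase that switches off ERK, was at 63.0, 71.3 and 75.6 CPM against 252, 231 and 241 CPM (-1.79 ± 0.10 SE, adjusted p = 5.59e-07), with 247, 231 and 241 CPM in the control libraries. KLF4 was at 33.8, 35.3 and 35.4 CPM against 88.5, 92.2 and 93.2 CPM (-1.39). For ATF3, a stress-induced factor, the AP001189.3 libraries at 58.4, 66.8 and 76.8 CPM stood above both the LINC00996 libraries at 23.5, 21.5 and 20.9 CPM and the control libraries at 33.2, 28.9 and 30.9 CPM (-1.62 ± 0.12 SE, adjusted p = 5.18e-06). For EGR1 too the AP001189.3 libraries, at 20.9, 18.07 and 23.0 CPM, were above the LINC00996 libraries at 9.30, 9.05 and 9.62 CPM and the control libraries at 10.5, 10.01 and 7.63 CPM (-1.15). The AP-1 subunit JUN was at 92.0, 75.4 and 74.0 CPM against 167, 162 and 193 CPM (-1.11). Of 15 AP-1, EGR and related factors 13 were lower, and of 12 feedback inhibitors 8 were.

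EGFR ligands and ERBB receptors were lower in 7 of 11 cases and higher in none, against 12.1% and 9.38% of all genes. Without LINC00996 replicate 1, 8 were lower, against 21.3% of all genes. The ligand HBEGF was at 3.75, 4.27 and 4.19 CPM against 10.3, 10.8 and 11.8 CPM (-1.43 ± 0.15 SE, adjusted p = 5.28e-05), BTC at 10.9, 13.2 and 14.8 CPM against 23.8, 23.0 and 25.2 CPM (-0.89) and EREG at 142, 192 and 215 CPM against 313, 337 and 349 CPM (-0.86). The receptor EGFR was at 503, 539 and 558 CPM against 771, 709 and 712 CPM (-0.45, adjusted p = 0.00223), all 3 LINC00996 libraries being lower.

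Of 58 epithelial, mesenchymal and matrix genes tested, 26 were lower and 1 was higher (median -0.31), against 12.1% and 9.38% of all genes. On the epithelial side 6 of 11 were lower, and on the mesenchymal side 7 of 22. The epithelial cadherin CDH1 (-0.77) and cell-surface mucin MUC1 (-1.36) were lower, and so were the repressors of CDH1 ZEB1 (-0.54) and ZEB2 (-1.47) and fibronectin FN1 (-0.59). CDH1 was at 160.3, 172 and 182 CPM against 307, 288 and 282 CPM, ZEB1 at 25.2, 29.5 and 36.2 CPM against 45.7, 42.5 and 43.7 CPM, and ITGA5, the fibronectin receptor chain, at 172, 145 and 159 CPM against 383, 344 and 320.4 CPM (-1.14 ± 0.10 SE, adjusted p = 1.37e-05). The call of ZEB1 was lost without LINC00996 replicate 2 or AP001189.3 replicate 1 or 3. VIM, the intermediate filament of mesenchymal cells, was at 397, 454 and 458 CPM against 443, 459.9 and 457 CPM and did not pass the test (-0.05, adjusted p = 0.696). THBS1, a matrix glycoprotein, was the member called higher (88.4, 109.8 and 109 against 62.9, 74.5 and 76.8 CPM, 0.52 ± 0.12 SE, adjusted p = 0.00814), a call lost without AP001189.3 replicate 1 (0.44 on the log2 scale). The count of lower members among 60 tested was 31 without LINC00996 replicate 1 (21.3% of all genes), 16 without LINC00996 replicate 2 (8.01%) and 15 without AP001189.3 replicate 1 (7.55%).

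Glycolysis and hypoxia genes were lower in 16 of 32 cases and higher in 1 (median -0.27), against 12.1% and 9.38% of all genes, with 8 of 10 hypoxia targets lower (median -0.51) and 8 of 22 glycolytic genes (median -0.16). ADM, the vasodilator adrenomedullin, was at 65.8, 65.9 and 70.2 CPM against 155, 147 and 143 CPM (-1.14 ± 0.09 SE, adjusted p = 5.82e-06). ANGPTL4, an inhibitor of lipoprotein lipase, was at 105, 103 and 92.8 CPM against 254, 213 and 235 CPM (-1.22). HK2, a hexokinase, was at 18.6, 19.1 and 20.8 CPM against 56.5, 51.1 and 45.1 CPM (-1.38) and the glucose transporter SLC2A1 at 297, 284 and 298 CPM against 561, 505 and 511 CPM (-0.84). LDHB, a lactate dehydrogenase subunit, was the member called higher, at 51.8, 44.8 and 44.9 CPM against 23.2, 18.2 and 27.8 CPM (1.03 ± 0.15 SE, adjusted p = 5.05e-04). LDHA was at 2403, 2679.8 and 2866 CPM against 2686, 2631 and 2639 CPM (adjusted p = 0.992). The count of lower members was 19 without LINC00996 replicate 1, against 21.3% of all genes, and 8, 10 and 9 without AP001189.3 replicate 1, 2 and 3, against 7.55% to 7.73%.

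ATF4 targets and unfolded protein genes were lower in 11 of 37 cases and higher in 1 (median -0.19), against 12.1% and 9.38% of all genes, with 20 lower and 3 higher without LINC00996 replicate 1, against 21.3% and 20.3%. Among 24 ATF4 targets 10 were lower and among 13 endoplasmic reticulum chaperones 1 was, under the share of all genes. STC2, a secreted glycoprotein, was at 68.6, 52.3 and 53.7 CPM against 127, 134 and 129 CPM (-1.16), and the amino acid transporter SLC7A5 at 1332, 1165 and 1142 CPM against 1733, 1704 and 1741 CPM (-0.51). The serine hydroxymethyltransferase SHMT2 was the member called higher (0.39 ± 0.12 SE, adjusted p = 0.0405), a call lost without LINC00996 replicate 2, without any 1 of the AP001189.3 libraries or after thinning to the smallest total. Of 26 cholesterol genes 3 were higher, 2 lower and 21 not called (median 0.00), shares near those of all genes, and 5 were higher and 7 lower without LINC00996 replicate 1, again near those of all genes. STARD4, a sterol carrier, was lower, at 46.7, 69.5 and 68.8 CPM against 88.9, 111 and 106 CPM (-0.73). PMVK, a kinase of the mevalonate pathway, was higher (1.07 ± 0.23 SE, adjusted p = 0.00697). LINC00996 replicate 1 was far above the others, at 28.5, 16.5 and 13.9 CPM against 9.25, 9.72 and 9.21 CPM. With 1 library left out, the log2 fold change of PMVK spanned 0.69 to 1.27. FDPS (0.46) and MVK (0.48) were called higher with all libraries but not without any 1 of the AP001189.3 libraries, nor was MVK without LINC00996 replicate 2.

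**Figure D5:**
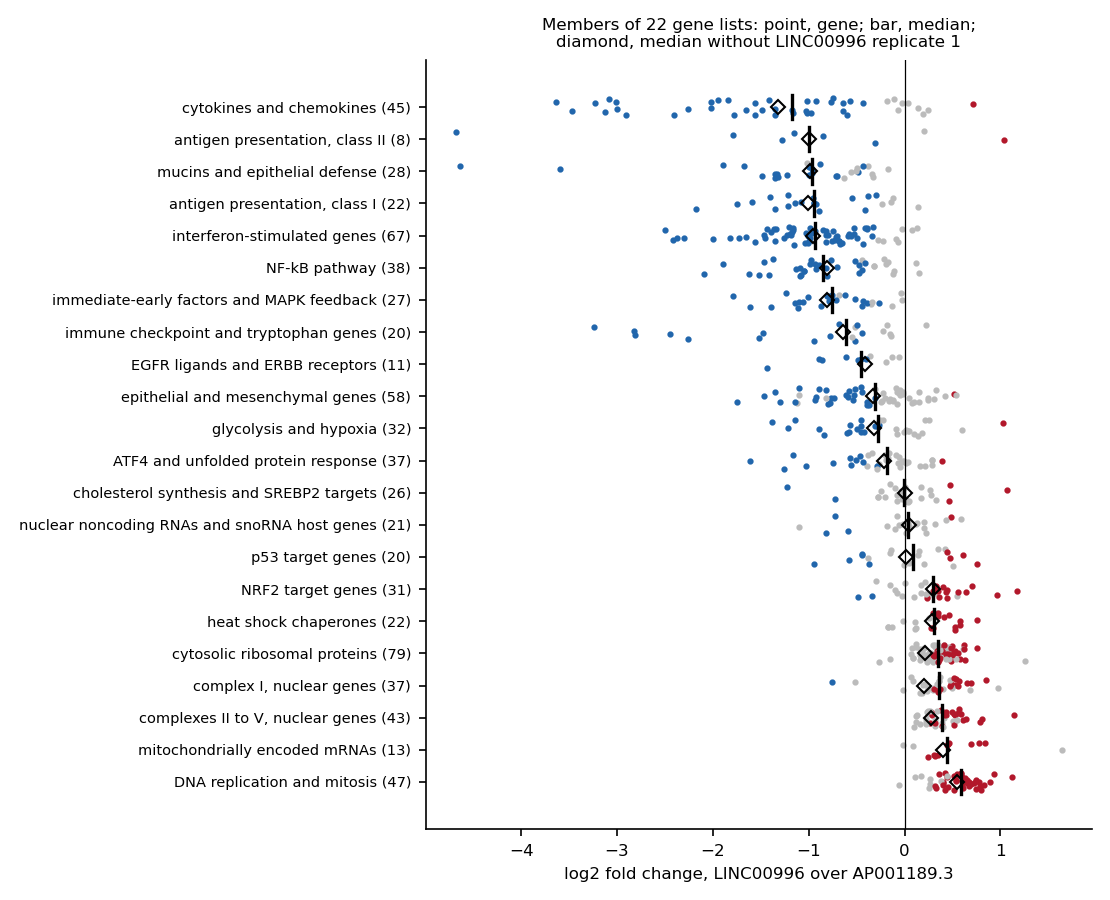
Log2 fold change (LINC00996 over AP001189.3) of every tested member of each gene list, 1 point per gene with calls in colour, the list's median as a bar and the median without LINC00996 replicate 1 as a diamond. Medians run from -1.17 for cytokines and chemokines to 0.59 for DNA replication and mitosis, where the median of all genes is 0.02.

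Among higher calls of 1 or more on the log2 scale, again only genes whose groups did not overlap were ranked. The 12 with the smallest adjusted p reached 1.02 to 1.39 and came from unrelated families. CDCA7L (chr7:21900900-21946084), a relative of the cell division protein CDCA7, was at 18.9, 18.0 and 16.7 CPM in the LINC00996 libraries and 6.70, 7.24 and 6.52 CPM in the AP001189.3 libraries (1.39 ± 0.13 SE, adjusted p = 2.23e-05), with 7.23, 6.97 and 8.37 CPM in the control libraries, and it overlaps DNAH11. CNTN1 (chr12:40692442-41072418), a cell adhesion molecule of the immunoglobulin family, was at 559, 768 and 746 CPM against 297, 322 and 298 CPM (1.18 ± 0.12 SE, adjusted p = 3.56e-05). CPLX2, which clamps vesicle fusion, was at 1047, 786 and 751 CPM against 417, 415 and 407 CPM (1.06). The control libraries were near the AP001189.3 libraries for these genes, at 327, 354 and 348 CPM for CNTN1 and 367, 356 and 362 CPM for CPLX2.

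ALDH3A1, an aldehyde dehydrogenase and NRF2 target, was the most abundant of the 12, at 2176, 1476 and 1361 CPM against 713, 769 and 746 CPM (1.17 ± 0.15 SE, adjusted p = 2.09e-04). SLITRK6, a neuronal transmembrane protein, was at 27.8, 39.3 and 39.7 CPM against 15.5, 14.5 and 14.8 CPM (1.25). TIMM21, which helps import mitochondrial proteins, was at 17.0, 18.0 and 15.2 CPM against 6.35, 8.87 and 6.77 CPM (1.19). Others were ANXA13 (1.02), ST6GAL2 (1.08), VAV3 (1.04), NT5DC2 (1.15) and ZDHHC8P1 (1.17). Within the LINC00996 group, replicate 1 was the highest for 5 of the 12 genes (CDCA7L, CPLX2, ALDH3A1, NT5DC2 and ZDHHC8P1) and the lowest for 5 others, CNTN1, SLITRK6, ST6GAL2 and VAV3 among them.

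DNA replication and mitosis genes were higher in the LINC00996 libraries in 39 of 47 cases and lower in none, against 9.38% of all genes called higher, with a median log2 fold change of 0.59. The count was 42, with a median of 0.55, without LINC00996 replicate 1, and it was 26 and 27 without AP001189.3 replicate 1 and 2, against 20.3%, 3.62% and 4.15% of all genes. Mitosis genes were higher in 24 of 26 cases and replication genes in 15 of 21. KIF20A, a kinesin of cytokinesis, was at 54.0, 54.4 and 57.7 CPM against 31.9, 29.2 and 26.0 CPM (0.93 ± 0.11 SE, adjusted p = 1.13e-04), with 31.5, 29.5 and 28.4 CPM in the control libraries. BIRC5 (survivin), which works in chromosome segregation, was at 93.7, 90.6 and 82.7 CPM against 52.5, 54.4 and 51.8 CPM (0.75 ± 0.09 SE, adjusted p = 1.83e-04). TOP2A, the topoisomerase that untangles chromosomes, was at 514, 632 and 666 CPM against 373, 353 and 352 CPM (0.75). The replicative helicase subunit MCM6 was at 58.7, 68.0 and 69.5 CPM against 34.2, 37.6 and 38.6 CPM (0.83) and the proliferation marker MKI67 at 313, 304 and 346 CPM against 242, 235 and 232 CPM (0.44). PCNA, the sliding clamp of replication, did not pass the test (0.18, adjusted p = 0.168), although its groups did not overlap at 326, 366 and 375 CPM and 305, 321 and 319 CPM. The share of cells in each cell cycle phase was not measured.

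Most nuclear genes of the respiratory chain did not pass the test, and those called were mostly higher. Of 37 nuclear genes of complex I, 13 were higher and 1 was lower (median 0.36), against 9.38% and 12.1% of all genes. The median was 0.21 without LINC00996 replicate 1, with 16 of 36 higher against 20.3% of all genes. The count of higher members was 21 without LINC00996 replicate 3, against 8.68% of all genes, and 3 without any 1 of the AP001189.3 libraries, against 3.62% to 4.15% of all genes. NDUFB3 was at 23.3, 22.4 and 18.9 CPM against 12.5, 13.8 and 13.6 CPM (0.70 ± 0.13 SE, adjusted p = 0.00248) and NDUFB6 at 49.9, 43.0 and 43.0 CPM against 32.6, 30.7 and 30.5 CPM (0.53). NDUFV2 was the member called lower (-0.76, adjusted p = 0.0131), a call lost without LINC00996 replicate 2 or AP001189.3 replicate 1 or 3. It was at 3.37, 4.02 and 5.06 CPM against 6.94, 6.52 and 7.62 CPM, overlaps an antisense gene and has a pseudogene. Of 43 nuclear genes of complexes II to V, 22 were higher and none was lower (median 0.39, and 0.28 without LINC00996 replicate 1). The count was 11, 14 and 13 without AP001189.3 replicate 1, 2 and 3, against 3.62% to 4.15% of all genes. ATP synthase had 11 of 18 higher, with ATP5MC1 at 93.8, 88.7 and 83.6 CPM against 48.6, 54.0 and 51.8 CPM (0.79 ± 0.09 SE, adjusted p = 1.52e-04) and ATP5MC2 at 167, 157 and 153 CPM against 99.4, 101 and 106 CPM (0.64).

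Mitochondrially encoded mRNAs were higher in 10 of 13 cases and lower in none (median 0.45), against 9.38% of all genes higher, with a count of 6 without AP001189.3 replicate 2, against 4.15%. MT-CO3, a core subunit of cytochrome oxidase, was at 6801, 7794 and 7466 CPM against 4005, 4168 and 4143 CPM (0.84 ± 0.08 SE, adjusted p = 1.79e-05), with 3145, 3061 and 2572 CPM in the control libraries. MT-ATP6, which overlaps MT-CO3 by 1 base in the annotation, was at 4425, 4983 and 4979.6 CPM against 2599, 2829.7 and 2948 CPM (0.78). MT-CO2 was higher too (0.46), while MT-ND1 was at 1905, 2043 and 2106 CPM against 2039, 2049.8 and 2053 CPM with overlapping groups (-0.02, adjusted p = 0.87). A difference between these mRNAs of the same genome was not tested. The count without LINC00996 replicate 1 was 11, against 20.3% of all genes.

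Cytosolic ribosomal protein genes were higher in 34 of 79 cases and lower in none (median 0.35), against 9.38% of all genes higher. Without LINC00996 replicate 1 the median was 0.21, with 47 higher and 2 lower, against 20.3% and 21.3% of all genes. The count of higher members was 51 without LINC00996 replicate 3 (8.68% of all genes) and 21, 19 and 20 without AP001189.3 replicate 1, 2 and 3 (3.62% to 4.15% of all genes). Values moved with transcript length too. Among genes of at least 10 CPM, the median difference on the log2 scale was 0.26 for transcripts of up to 700 bases, of which 23 of 81 were called higher and 6 lower, and -0.02 for those over 5000 bases, and 0.12 and 0.01 without LINC00996 replicate 1. The part of transcript length in the ribosomal and respiratory values was not tested. RPS3A was at 383, 361 and 356 CPM against 213, 218 and 222 CPM (0.75 ± 0.08 SE, adjusted p = 5.58e-05), RPL6 at 676, 652 and 646 CPM against 425, 431 and 420.2 CPM (0.63) and RPL5 at 372, 361 and 353 CPM against 240.5, 242 and 246 CPM (0.58). These genes have many processed pseudogenes that can share their reads, so single values are uncertain.

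NRF2 target genes, which A549 expresses strongly because its KEAP1 is mutated, were higher in 14 of 31 cases and lower in 2 (median 0.30), against 9.38% and 12.1% of all genes. Without LINC00996 replicate 1 there were 19 higher and 6 lower, against 20.3% and 21.3%, so that the lower share was near that of all genes. AKR1B10, an aldo-keto reductase, was at 1371, 1384 and 1362 CPM against 654, 749.8 and 711 CPM (0.96 ± 0.08 SE, adjusted p = 9.97e-06) and PRDX1, a peroxiredoxin, at 545, 564 and 549.5 CPM against 333, 366 and 364 CPM (0.64). NQO1 was higher by 0.44 on the log2 scale, while TXNRD1 (-0.08, adjusted p = 0.476) and HMOX1 (0.18, adjusted p = 0.376) did not pass the test. The gene of NRF2 itself, NFE2L2, was called lower, at 85.9, 109 and 129.6 CPM against 151, 147 and 156 CPM (-0.48 ± 0.13 SE, adjusted p = 0.0207), and so was ferritin heavy chain FTH1 (-0.34), whose groups overlapped. Both lower calls were lost without LINC00996 replicate 2 or without any 1 of the AP001189.3 libraries, that of FTH1 also without LINC00996 replicate 3, with library size alone and with all 9 libraries in 1 fit. The count of higher members was 9 without LINC00996 replicate 2, against 4.80% of all genes, and 7, 8 and 9 without AP001189.3 replicate 1, 2 and 3, against 3.62% to 4.15% of all genes.

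Heat shock chaperones were higher in 12 of 22 cases and lower in none (median 0.30), against 9.38% of all genes higher. The count was 16, with 2 lower, without LINC00996 replicate 1, against 20.3% and 21.3% of all genes. It was 7 without LINC00996 replicate 2 (4.80% of all genes) and 6, 7 and 6 without AP001189.3 replicate 1, 2 and 3 (3.62% to 4.15% of all genes). HSPE1, the mitochondrial co-chaperonin, was at 48.2, 57.6 and 47.2 CPM against 30.4, 33.2 and 27.2 CPM (0.75 ± 0.12 SE, adjusted p = 0.00106) and HSPA8, the constitutive HSP70, at 644, 720.2 and 787 CPM against 450.3, 502 and 488 CPM (0.58). CCT5, a subunit of the chaperonin that folds actin and tubulin, was at 239, 226 and 236 CPM against 150.03, 169 and 168 CPM (0.52). HSPE1 overlaps HSPD1 and has pseudogene copies.

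Genes that p53 activates were called higher in 4 and lower in 5 of 20 cases (median 0.09), against 9.38% and 12.1% of all genes. CDKN1A (p21), an inhibitor of cyclin-dependent kinases, was at 237, 192 and 191 CPM against 301, 316 and 312 CPM (-0.58 ± 0.10 SE, adjusted p = 0.00156). FDXR, a mitochondrial reductase, was higher (0.75) and so were TP53I3 (0.61) and DDB2 (0.44). BBC3 (PUMA), which promotes apoptosis, was at 65.5, 37.4 and 29.2 CPM against 89.5, 85.5 and 79.99 CPM (-0.95), a call lost without LINC00996 replicate 2 or AP001189.3 replicate 1. There were 7 higher and 8 lower without LINC00996 replicate 1 (median 0.018), where 20.3% and 21.3% of all genes were, 2 lower without LINC00996 replicate 2, and 2, 3 and 3 lower without AP001189.3 replicate 1, 2 and 3, where 7.55% to 8.01% of all genes were.

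Nuclear noncoding RNAs and host genes of small nucleolar RNAs were mostly not called, with 1 higher and 3 lower of 21, where 9.38% and 12.1% of all genes were, and 6 higher and 4 lower without LINC00996 replicate 1, where 20.3% and 21.3% of all genes were. The median was 0.04, and -0.02 with an offset for GC content. NEAT1, the scaffold of paraspeckles, was at 818, 583 and 555 CPM in the LINC00996 libraries, 1051, 1089.7 and 1094 CPM in the AP001189.3 libraries and 614, 591 and 529 CPM in the control libraries (-0.73 ± 0.13 SE, adjusted p = 0.00214), and the control libraries lay near LINC00996 replicates 2 and 3. The call was lost with an offset for GC content, where the log2 fold change was -0.73 (adjusted p = 0.0695). MEG3, an imprinted lncRNA, was lower (-0.82, adjusted p = 1.52e-04), while MALAT1 was at 485, 811 and 742 CPM against 592, 620.5 and 765 CPM with overlapping groups (adjusted p = 0.882). Of the study's model lncRNAs, 10 passed the filter, and beside the overexpressed pair LINC01138 alone was called (2.99, 2.74 and 2.94 against 4.45, 4.11 and 5.24 CPM, -0.67 ± 0.19 SE, adjusted p = 0.0275). That call was lost without any single library other than LINC00996 replicate 1. SREBF2-AS1, of the squamous cell carcinoma model, was at 3.10, 2.74 and 2.99 CPM against 1.01, 2.41 and 2.44 CPM (0.60, adjusted p = 0.189), and the antisense lncRNAs overlap their partner genes, so their reads cannot be told apart with certainty.

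Genes near the native loci of the lncRNAs were read as well. Within 500 kb of LINC00996 on chromosome 7, 6 of 35 genes were tested, none was higher and 4 were lower (12.1% of all genes were). GIMAP2, a GTPase of the immune-associated family, was at 2.83, 3.06 and 2.72 CPM against 6.76, 6.46 and 6.83 CPM (-1.22 ± 0.17 SE, adjusted p = 3.88e-04), and AC073111.5 at 8.59, 6.89 and 6.09 CPM against 14.2, 15.5 and 15.4 CPM (-1.06). REPIN1 (-0.40) and ZNF775 (-0.56) were the others, and both calls were lost without LINC00996 replicate 2 or without any 1 of the AP001189.3 libraries, that of ZNF775 also without LINC00996 replicate 3, with library size alone, after thinning and with an offset for GC content. GIMAP8, the nearest gene at 2.49 kb, did not pass the filter. Within 500 kb of AP001189.3 on chromosome 11, 14 of 27 genes were tested, none was higher and 3 were lower, where 12.1% of all genes were. LRRC32 (chr11:76657524-76670747, 0.812 kb away), which anchors latent TGF-beta at the cell surface, was at 1.79, 1.91 and 1.85 CPM in the LINC00996 libraries and 7.06, 5.15 and 5.24 CPM in the AP001189.3 libraries (-1.65 ± 0.21 SE, adjusted p = 2.17e-04). The control libraries, with no plasmid for either lncRNA, were at 7.18, 5.10 and 5.79 CPM, within the range of the AP001189.3 libraries or just outside it. TSKU was at 378, 324 and 328 CPM against 464, 473 and 486 CPM (-0.47), and GUCY2EP was lower as well (-1.15), a call lost without LINC00996 replicate 2 or 3 or AP001189.3 replicate 1 or 2.

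Markers of A549 and of other cell types were summed to check the labelled cell line. The 4 A549 markers (ALDH1A1, AKR1B10 and AKR1C1 among them) summed to 8373 to 8870.4 CPM in the LINC00996 libraries and to 5283 to 5734 CPM in the AP001189.3 libraries, and all 4 were called higher. ALDH1A1 was at 5541, 6005 and 5959 CPM against 3478, 3811 and 3730.1 CPM (0.67 ± 0.07 SE, adjusted p = 8.03e-05). The epithelial markers summed to 7003 to 9035 CPM against 7488 to 7607 CPM, with CDH1 (-0.77) and KRT19 (-0.37) called lower and EPCAM, KRT8 and KRT18 not called. The call of KRT19 was lost with library size alone or without any single library other than LINC00996 replicate 1, and that of AKR1C1 without the same single libraries. Lung markers summed to 154 to 167 CPM against 353 to 361 CPM. LAMP3, a lysosomal protein that interferon induces, held most of that sum in the AP001189.3 libraries, at 54.2, 59.7 and 82.5 CPM against 265, 272 and 263 CPM (-2.03 ± 0.14 SE, adjusted p = 2.50e-06). The surfactant genes SFTPA1, SFTPB and SFTPC and the lung factor NKX2-1 did not pass the filter. Markers of blood cells (leukocytes, and HBB of red cells) summed to 16.8 to 19.3 CPM against 14.5 to 21.7 CPM, with CD3E and HBB, 2 of the 8, at 0 in all 6 libraries. Endothelial markers summed to 5.38 to 6.69 CPM against 7.44 to 9.61 CPM, with KDR, 1 of the 5, at 0 in all 6 libraries, and fibroblast markers to 12.7 to 15.6 CPM against 19.5 to 22.6 CPM. Of these 19 markers of other cell types 5 were tested, and COL1A1 (-0.53) and PECAM1 (-0.62, adjusted p = 0.0484) were called lower. Neither was called without AP001189.3 replicate 1 or 2, and PECAM1 lost its call under 11 of 17 alternatives, among them DESeq2 and leaving out any 1 library.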

How the data were processed

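A549 cells were transfected with a control plasmid or a plasmid for LINC00996 or AP001189.3, total RNA was extracted with Trizol, and 3 libraries per plasmid were sequenced. The deposited table holds raw counts per gene, made by the authors from reads aligned to GRCh38. It also holds the authors' FPKM, which relate counts to gene length and depth and were used only for the per-length levels of the overexpressed lncRNAs. The submitters' processing notes name HISAT2 2.0.5, featureCounts 1.5.0-p3, DESeq2 1.20.0 and edgeR 3.22.5. All 58735 gene positions equal those of GENCODE release 29, and whether the counting used strand is not given in the sources used here.

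Groups came from the sample labels. Counts of the 6 libraries were filtered with filterByExpr, scaled with TMM and tested with edgeR 4.0.16 (R 4.3.3, limma 3.58.1; glmQLFit with robust fitting, glmQLFTest, two-sided) with no covariates. A gene was called at a Benjamini-Hochberg adjusted p under 0.05, and the log2 fold change is LINC00996 over AP001189.3. No set test was run. On simulated counts the test recovered 96.5% of 200 genes changed by 1 on the log2 scale among 15765 genes. A minimum mean count of 50 was set in the simulation, so the recovery does not cover genes of lower counts. Of the 209 calls of the test, 7.66% were unchanged genes, and with no gene changed it called 1 of 15770.

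Alternatives were DESeq2 1.42.0, library size scaling, other filters, all 9 libraries in 1 fit, removal of mitochondrial genes, thinning, offsets for GC content and gene length, the replicate number as a block and leaving out each library. Figures used Python 3.11.15, numpy 2.4.6 and matplotlib 3.10.9. Named genes were the overexpressed lncRNAs, and the 12 per direction with the smallest adjusted p among calls of 1 or more on the log2 scale in either direction, no overlap between groups and a mean of at least 1 CPM. Up to 3 called members per list and direction, the genes and model lncRNAs the study names and genes within 500 kb of either lncRNA were added. Some genes that this rule selects are not reported here. Further list members were named as examples after their values were seen. The comparison and the lists were chosen with earlier results of these data known. Depths of 15272450 to 18125447 counts leave genes of a few counts imprecise, and the floor of 3 counts covers counting error only.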

Additional observations from a re-analysis of the deposited data

How the results depend on the processing

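None of the 434 called list members, nor any other called gene named here, changed direction under any alternative run, and 145 of the 434 lost their call under at least 1. The 3452 calls became 5905 (3194 higher) with an offset for GC content, which kept 3380 of them, and 1840 to 6828 when 1 library was left out (597 to 3326 higher, 1243 to 3502 lower). Calls at an adjusted p under 0.01 numbered 1766, and became 4148 with the GC offset and 693 to 5108 with 1 library left out. DESeq2 made 3511 calls, of which 3283 were shared. Library size scaling raised the median of all genes from 0.02 to 0.08. The labels give both plasmids replicate numbers 1 to 3. The same-number deviations correlated at only 0.111, 0.016 and 0.075, so the numbers were not taken to pair libraries. LINC00996 replicates 1 and 3 each correlated best with the AP001189.3 library of the same number. LINC00996 replicate 2 correlated better with AP001189.3 replicate 3 (0.032) than with replicate 2. A fit with the replicate block made 3772 calls, and one with the block and the GC offset made 5915 (3212 higher, 4166 at an adjusted p under 0.01). Of the called list members 6 lost their call with the block alone, of which PECAM1 is named here.

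List medians that moved by more than the spread between libraries kept their sign, except those of cholesterol genes and nuclear noncoding RNAs, which lay near 0. With library size scaling they were -0.87 for interferon-stimulated genes, -1.11 for cytokines, -0.79 for NF-kB, 0.51 for mitochondrial mRNAs, 0.36 for NRF2 targets, -0.12 for ATF4 targets, 0.058 for cholesterol genes, -0.21 for glycolysis and hypoxia, 0.65 for replication and mitosis, 0.15 for p53 targets, -0.69 for immediate-early genes, -0.24 for epithelial and mesenchymal genes and 0.10 for nuclear noncoding RNAs. With the GC offset, alone or with the block, they were -0.79 for interferon-stimulated genes, -0.80 and -0.79 for NF-kB, -0.87 and -0.88 for class I, -0.19 for glycolysis and hypoxia, -0.68 for immediate-early genes, -0.24 for epithelial and mesenchymal genes and -0.019 and -0.026 for nuclear noncoding RNAs, and 0.27 for NRF2 targets with the offset alone. With the length offset they were -0.87 for interferon-stimulated genes, 0.35 for NRF2 targets, -0.23 for glycolysis and hypoxia, 0.12 for p53 targets and -0.25 for epithelial and mesenchymal genes. Without a filter they were -1.35 for cytokines, -1.22 for class II and -0.37 for epithelial and mesenchymal genes. At a minimum of 10 counts they were -1.10 for cytokines and -0.58 for class II, and after thinning -0.28 for epithelial and mesenchymal genes. With 1 library left out they spanned -0.95 to -0.84 for interferon-stimulated genes, -1.32 to -1.07 for cytokines, -0.86 to -0.81 for NF-kB, -1.01 to -0.90 for class I, 0.28 to 0.46 for complexes II to V, 0.39 to 0.48 for mitochondrial mRNAs, 0.26 to 0.30 for NRF2 targets, -0.32 to -0.23 for glycolysis and hypoxia, 0.018 to 0.13 for p53 targets, -0.38 to -0.30 for epithelial and mesenchymal genes, -1.03 to -0.83 for mucins and defense and -0.027 to 0.064 for nuclear noncoding RNAs. The cause of these shifts was not tested. AP001189.3 and LINC00996 were not testable at a minimum of 10 counts in every library.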

Other observations

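Over all genes tested, 9.38% were higher and 12.1% lower in the LINC00996 libraries. On chromosome 19 the shares were 2.99% higher and 13.1% lower of 1104 genes, on chromosome 6, which holds the HLA genes, 7.49% and 16.5% of 814, and on chromosome 2 they were 14.0% and 9.35% of 1027. Among genes of at least 10 CPM, calls in the bin over 55% GC numbered 144 higher and 542 lower of 2763, and calls in the bin of 40% to 45% GC numbered 378 higher and 215 lower of 2175. Among processed pseudogenes, 29 of 358 were higher and 13 lower, the opposite order to protein-coding genes, of which 1409 were higher and 1792 lower of 13393. Reads of pseudogenes can come from their parent genes, so these values are uncertain. None of these splits was tested.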
